A study of Yarrowia lipolytica with 9 samples.

Results

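Transcribed features that carried no RefSeq name were compared among 3 engineered strains of the yeast Yarrowia lipolytica, and 28 of 214 (13.1%) differed among the strains, near the background of 15.0% of all features tested. The deposited read counts cover 6366 features. Of these, 5959 carry RefSeq transcript accessions and are called annotated here, while 407 carry only a running number, as in Novel00075, and are called unannotated. The 214 unannotated features described here (52.6% of the 407) had a mean of at least 10 CPM (the usual depth-scaled unit, in which each count is divided by its library total) over the 9 libraries. Because the same counts chose them, their abundance is given as a description. The choice used the mean over all libraries and no difference between strains. Only 5 of the 214 had a strain mean under 10 CPM, and the lowest of these was 8.08 CPM in yl_10 for Novel00215. In each of these 5 the other 2 strain means were above 10 CPM.

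The strains go by the names yl_10, yl_11 and yl_12 and had 3 libraries each. Per the labels, all 3 derive from strain ATCC 201249, all carry heterologous genes, and all were cultivated in flasks, shaken at 250 rpm and 28 °C, for 72 h before total RNA was prepared. The labels say that the strains make different levels of lycopene, a red carotenoid, but they assign no level, inserted gene or parent to a strain. No strain is therefore a control here, and each difference is named by the 2 strains compared.

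Yarrowia lipolytica is an oleaginous yeast, which stores much of its carbon as lipid and is used as a host for isoprenoid production. Transcription outside annotated genes is common in yeasts. In Saccharomyces cerevisiae it includes stable unannotated transcripts, RNAs antisense to genes, cryptic transcripts that the nuclear exosome degrades, and protein-coding genes that a first annotation missed. A feature built from reads can also be a longer or merged form of a known gene. The tables give no position, sequence, strand or product for the unannotated features, so none of the 214 is assigned to such a class here. Whether strand was used in counting is not given in the sources used here, and reads of a feature and of an overlapping or antisense gene cannot be told apart.

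The 214 unannotated features of at least 10 CPM were long. Their length, recovered as the value that links each count to its FPKM (counts scaled to feature length and library total), had a median of 2340 bases, with quartiles of 1248 and 3618 bases. Annotated features with the same minimum of 10 CPM, 4838 in number, had a median of 1314 bases. The 2 figures do not measure the same thing. All 4838 annotated lengths were multiples of 3, as coding lengths are, and so hold no untranslated ends, whereas 64 of the 214 unannotated lengths (29.9%) were multiples of 3.

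Lengths over 5000 bases were found for 27 of the 214 unannotated features (12.6%) and for 58 of the 4838 annotated ones (1.20%). Lengths under 600 bases were found for 13 (6.07%) and 594 (12.3%). The longest unannotated features were Novel00139 with 10864 bases, Novel00286 with 10857 and Novel00053 with 9915. The shortest of the 214 were Novel00289 with 271 bases, Novel00063 with 354 and Novel00404 with 384. Lengths of 510 and 1172 bases each occurred for a pair of features, and the other 210 lengths were each found once among the 214.

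**Figure D1:**
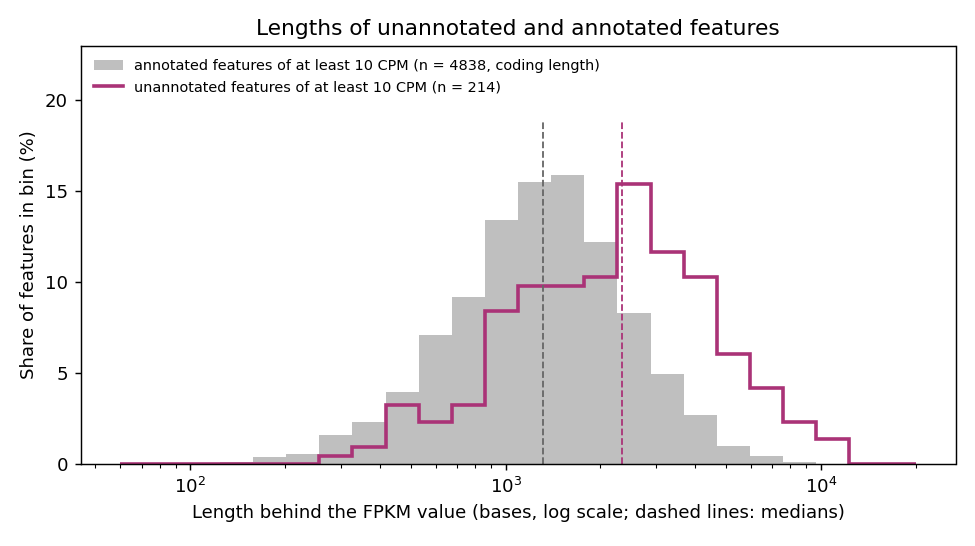
Length behind the FPKM value in bases (x axis, log scale) against the share of features in each bin in percent (y axis), for 214 unannotated features (line) and 4838 annotated features (filled), both with a mean of at least 10 CPM. The dashed lines mark the medians of 2340 and 1314 bases, and the unannotated features reach further to the right.

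Unannotated features under the 10 CPM minimum, 193 in number, were shorter than those above it, with a median of 1206 bases over the 171 that had a length. The other 22 had no counts in any library. CPM values are not divided by length. On the scale that allows for length, the 214 features had a median of 20.3 FPKM, against 54.6 FPKM for annotated features of at least 10 CPM. Across the 214 features, the correlation of log2 length with log2 mean CPM was r = 0.095. The 54 shortest features, of 271 to 1243 bases, had a median of 54.2 FPKM, and the 54 longest, of 3643 to 10864 bases, had 12.0 FPKM. Both scales share the same counts, and the FPKM falls with length by its construction.

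**Figure D2:**
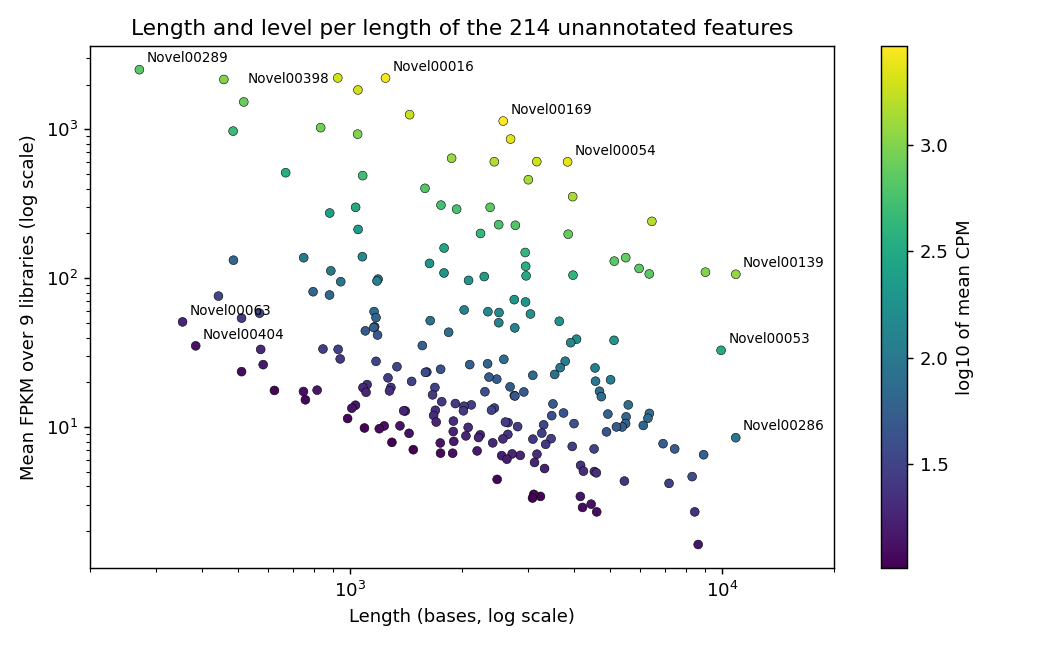
Length in bases (x axis, log scale) against the mean FPKM over 9 libraries (y axis, log scale) for the 214 unannotated features, with the colour showing log10 of the mean CPM. Novel00289, with 271 bases, has the highest FPKM, and Novel00286, with 10857 bases, reaches 8.50 FPKM.

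A few unannotated features took a large part of the counts. The 10 with the most counts held between 39.7% and 41.5% of all counts of the 214 in each library. Novel00169 led, with 2734, 2765 and 2909 CPM in yl_10, 3105, 2816 and 2981 in yl_11, and 2956, 2989 and 3113 in yl_12. It ranked 17 among all 6366 features by mean CPM. After it came Novel00016 (mean of 2751 CPM), Novel00054 (2322 CPM), Novel00222 (2320.4 CPM), Novel00398 (2052 CPM), Novel00375 (1928 CPM), Novel00009 (1925 CPM), Novel00071 (1812 CPM), Novel00138 (1558 CPM) and Novel00094 (1478 CPM). These 10 features make up all of the unannotated features among the 100 features with the most counts. In all, 14 of the 214 (6.54%) reached 1000 CPM, and 159 of the 4838 annotated features of at least 10 CPM (3.29%) did.

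Ordered by level per length, short features came to the front. Novel00289, the shortest, had the highest value, with 2401 ± 267 FPKM in yl_10, 2691 ± 65 FPKM in yl_11 and 2465 ± 306 FPKM in yl_12 (SD, n = 3). It ranked 48 among all features. Novel00398 followed with a mean of 2218 FPKM, then Novel00016 (2213 FPKM), Novel00230 (2166 FPKM) and Novel00375 (1840 FPKM). The level of Novel00230, 457 bases long, was 2203 ± 88 FPKM in yl_10, 2173 ± 69 FPKM in yl_11 and 2122 ± 175 FPKM in yl_12. These 5 were the unannotated features among the 100 features with the highest FPKM. Among them, only Novel00289 and Novel00230 were shorter than 600 bases. At the other end of the length range, Novel00139 had 106 FPKM although its 10864 bases collected 1156 CPM. Novel00053 had 32.8 FPKM and Novel00286 had 8.50 FPKM.

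The unannotated features together took nearly the same part of each library. The 214 features held 5.18%, 5.21% and 5.20% of the counts in yl_10, 5.42%, 5.21% and 5.23% in yl_11, and 5.09%, 5.06% and 5.30% in yl_12. The strain means were 5.20% ± 0.02, 5.29% ± 0.12 and 5.15% ± 0.13 (SD, n = 3), and the ranges of the 3 strains overlapped. The 193 features under the minimum added little, since all 407 together held between 5.11% and 5.48% of a library.

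Library totals ranged from 7035777 to 16424183 counts, and the lowest count of any of the 214 features in any library was 44. Over the whole table, yl_10 replicate 3, yl_11 replicate 1 and yl_12 replicate 3 were each the library least like the others of its strain, and they are called the deviating libraries below. The labels do not say whether libraries of a strain are from separate cultures. The p-values below therefore reflect differences between libraries that may be technical repeats.

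All 214 features passed the filter on low counts, and 28 of them (13.1%) differed among the 3 strains in the F test of edgeR at a Benjamini-Hochberg adjusted p below 0.05, against a background of 15.0% of the 6147 features tested and 17.4% of annotated features of at least 10 CPM. The share among the unannotated features was thus near the background. The order of strain means among the 28 varied. yl_11 was in the middle for 14, yl_12 for 8 and yl_10 for 6. These means are CPM on library totals, without the further scaling used in the tests. The same split was not made for all features called. In bulk RNA of this kind, a lower level per cell and fewer cells that express a feature cannot be told apart.

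The size of the differences was limited. The highest strain mean exceeded the lowest by 1.5-fold or more for 3 of the 214 features (1.40%), which were Novel00075, Novel00353 and Novel00083, and for 208 of the 4838 annotated features (4.30%). A ratio of 2 or more was found for none of the 214 and for 51 annotated features (1.05%). The median ratio was 1.14 for unannotated and 1.11 for annotated features. In the tests, none of the 214 features was both called and changed by 2-fold or more. The background of such calls was 0.163% of features tested for yl_11 against yl_10, 0.911% for yl_12 against yl_10 and 0.325% for yl_12 against yl_11. Of the 145 unannotated features under 10 CPM that were tested, 0, 3 and 2 had such calls, in the same order. Among the 214, the log2 fold change furthest from 0 was 0.88, that of Novel00075.

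**Figure D3:**
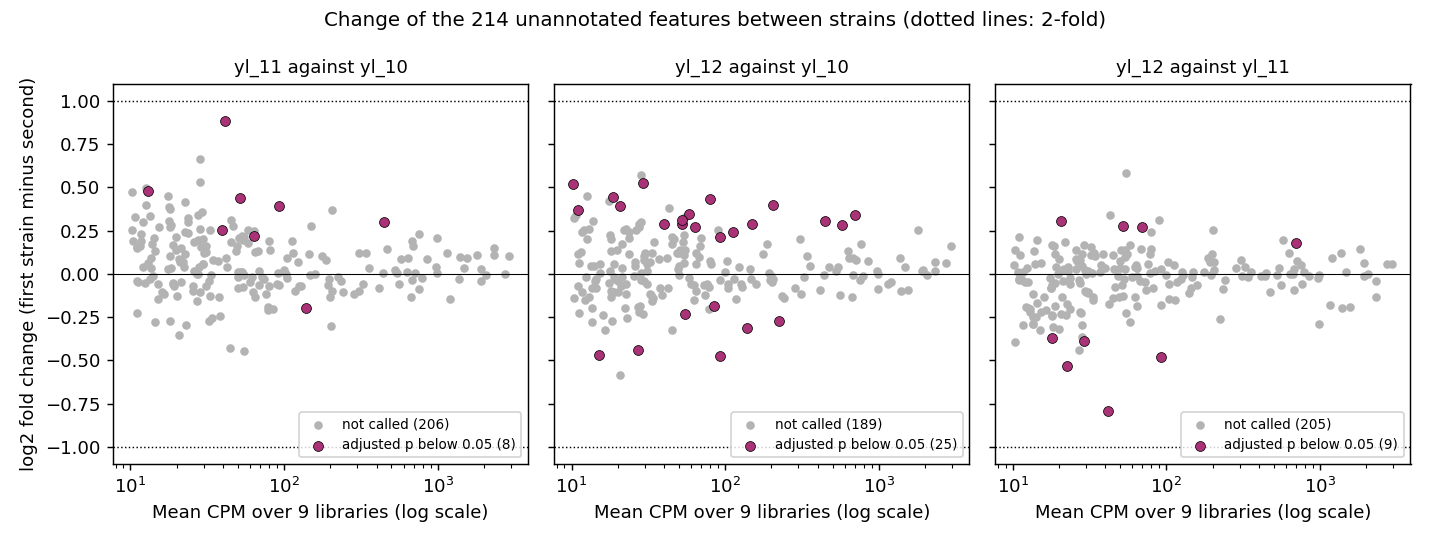
Mean CPM over 9 libraries (x axis, log scale) against the log2 fold change (y axis, first strain minus second) of the 214 unannotated features in the 3 comparisons. Filled dark points are called at an adjusted p below 0.05 (8, 25 and 9 features), dotted lines mark a 2-fold change, and every point lies between them.

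These 28 calls varied with the libraries used. Their number was 17 without yl_10 replicate 1 (background 9.75% of all features tested in the same fit), 16 without yl_11 replicate 2 (10.7%) and 17 without yl_11 replicate 3 (11.04%). It was 14, 12 or 51 when replicate 1, 2 or 3 of yl_12 was the one dropped, where the background was 9.06%, 8.88% or 20.003%. The share called thus moved over all features as well. With the 3 deviating libraries removed it was 103 of 214 (48.1%), against a background of 38.3% of 6149 features tested. For annotated features of at least 10 CPM it was then 43.6%. Removing the least similar libraries makes the spread smaller by construction.

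In yl_11 against yl_10, the clearest change of any unannotated feature was that of Novel00075, 3476 bases long. Its levels were 34.3, 31.8 and 31.0 CPM in yl_10, 56.1, 60.6 and 60.1 in yl_11, and 31.8, 35.4 and 32.7 in yl_12. All yl_11 libraries lay above all others, and the ranges of yl_10 and yl_12 overlapped. The log2 fold change was 0.88 (SE 0.07, adjusted p = 1.97e-05) for yl_11 against yl_10 and -0.79 (SE 0.07, adjusted p = 2.22e-05) for yl_12 against yl_11. For yl_12 against yl_10 it was 0.09 (SE 0.07, adjusted p = 0.439). Both calls remained in each of 21 alternatives, with log2 values from 0.80 to 0.93 for the first and from -0.83 to -0.76 for the second.

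Novel00098 and Novel00124 were also highest in yl_11. Novel00098, 4559 bases long, was at 81.7, 79.4 and 84.3 CPM in yl_10, 108.1, 100.7 and 107.9 in yl_11, and 92.2, 84.1 and 97.0 in yl_12. The yl_11 libraries were above all those of the other strains, and those of yl_10 and yl_12 overlapped at 84 CPM. It rose by a log2 value of 0.39 (SE 0.06, adjusted p = 0.0058) from yl_10 to yl_11, a call kept in each alternative. In yl_12 against yl_11 its log2 fold change was -0.18 (SE 0.06, adjusted p = 0.116), and in yl_12 against yl_10, where libraries overlapped, it was 0.21 (SE 0.07, adjusted p = 0.048). Novel00124 averaged 44.1 ± 2.6 CPM over yl_10, 59.0 ± 3.3 CPM over yl_11 and 52.9 ± 5.6 CPM over yl_12 (SD, n = 3), with a difference of 0.44 on the log2 scale (SE 0.08, adjusted p = 0.014) for yl_11 against yl_10. It lost this call when yl_10 replicate 1 (adjusted p = 0.053), yl_11 replicate 1 (0.062) or yl_11 replicate 2 (0.065) was left out.

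A second pattern was a yl_10 level that differed from both other strains. Novel00199, 2238 bases long, had 385.4, 419.6 and 378.8 CPM in yl_10, 489.1, 478.4 and 465.9 in yl_11, and 480.9, 465.9 and 463.0 in yl_12. Every yl_10 library was below every other library, and yl_11 and yl_12 overlapped. The log2 fold changes were 0.30 (SE 0.05, adjusted p = 0.0042) for yl_11 against yl_10, 0.31 (SE 0.05, adjusted p = 0.00079) for yl_12 against yl_10 and 0.01 (SE 0.05, adjusted p = 0.961) for yl_12 against yl_11. The first and the second of these share the yl_10 libraries, and both calls remained in each of 21 alternatives. Novel00309, 2342 bases long, was higher in yl_10, with 160.7, 160.3 and 156.3 CPM there, 135.3, 140.0 and 133.7 in yl_11, and 131.8, 117.5 and 121.5 in yl_12. No library of another strain reached the yl_10 range, and the yl_11 libraries were all above those of yl_12. For yl_12 against yl_11 the log2 fold change of Novel00309 was -0.11 (SE 0.05, adjusted p = 0.211). Its log2 fold change was -0.31 (SE 0.05, adjusted p = 0.0011) for yl_12 against yl_10 in a call kept throughout, and -0.20 (SE 0.05, adjusted p = 0.040) for yl_11 against yl_10. The latter was lost in 6 of the 9 fits with 1 library left out, which were those without a yl_10 or yl_11 library (adjusted p up to 0.147). Of all 21 alternatives, 9 lost it, among them both limma settings.

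The remaining calls in yl_11 against yl_10 were weaker. The log2 fold change was 0.48 for Novel00061 (SE 0.12, adjusted p = 0.040), 0.26 for Novel00224 (SE 0.06, adjusted p = 0.039) and 0.22 for Novel00332 (SE 0.06, adjusted p = 0.046). Their libraries did not overlap between the 2 strains, which the rule for naming features required. Leaving out 1 library ended these calls in 6, 8 and 7 of 9 fits, with adjusted p up to 0.150, 0.123 and 0.167.

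In all, 8 of the 214 features (3.74%) were called in yl_11 against yl_10, against a background of 4.16% of all features tested and 4.96% of annotated features of at least 10 CPM. Of the 8, 7 were higher in yl_11 (background 1.68%) and 1 was lower (background 2.49%). When libraries were scaled by their totals alone, 9 were called, of which 4 were higher (background 1.07%) and 5 lower (background 3.19%), so the majority direction turned with the scaling. The median log2 fold change over the 214 features was 0.05, and over all features tested it was 0.00. The number of called features was 4 without yl_10 replicate 1 (background 1.20%) and 3, 3 and 4 without replicate 1, 2 or 3 of yl_11 (background 1.58%, 1.02% and 1.72%). It was 21 without yl_12 replicate 3 (background 8.43%). It was 57 (26.6%) with the 3 deviating libraries removed, where the background was 20.1%. Annotated features of at least 10 CPM were then at 23.2%.

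In yl_12 against yl_10, besides that of Novel00199, the named rises with calls kept in each of 21 alternatives were those of Novel00288, Novel00074, Novel00019 and Novel00204. Novel00288, 5970 bases long, had 624.8, 625.3 and 634.5 CPM in yl_10, 720.9, 683.0 and 670.5 in yl_11, and 767.6, 754.8 and 773.3 in yl_12. The 3 strains did not overlap, with yl_11 between the other two. Its log2 fold change was 0.34 (SE 0.05, adjusted p = 0.0004) for yl_12 against yl_10. It was 0.18 (SE 0.05, adjusted p = 0.038) for yl_12 against yl_11 and 0.16 (SE 0.05, adjusted p = 0.070) for yl_11 against yl_10. The call in yl_12 against yl_11 was lost in 6 of the 9 fits with 1 library left out (adjusted p up to 0.168). Over all 21 alternatives it was lost in 9, which included both limma settings.

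Novel00074 rose from 69.6 ± 7.1 CPM in yl_10 to 90.9 ± 7.5 CPM in yl_12 (SD, n = 3), or 0.43 on the log2 scale (SE 0.09, adjusted p = 0.0052). Novel00019 had 19.3, 18.4 and 18.8 CPM in yl_10, 19.4, 18.5 and 21.1 in yl_11, and 24.7, 23.3 and 23.6 in yl_12. Its yl_12 libraries were above all others and its yl_10 and yl_11 libraries overlapped. The log2 fold change was 0.39 (SE 0.08, adjusted p = 0.0068) for yl_12 against yl_10. It was 0.31 (SE 0.08, adjusted p = 0.037) for yl_12 against yl_11, which was lost in 7 of the 9 fits with 1 library left out (adjusted p up to 0.143). This call was lost in 12 of all 21 alternatives, among them library totals only, both limma settings and DESeq2. Novel00204 rose from 15.7 ± 2.1 to 20.8 ± 0.5 CPM between yl_10 and yl_12, or 0.44 on the log2 scale (SE 0.10, adjusted p = 0.010).

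The other named rises from yl_10 to yl_12 had log2 fold changes of 0.52 (SE 0.14) for Novel00215, 0.40 (SE 0.10) for Novel00042, 0.37 (SE 0.11) for Novel00339, 0.34 (SE 0.08) for Novel00086 and 0.31 (SE 0.08) for Novel00124. Their adjusted p-values were 0.028, 0.020, 0.038, 0.016 and 0.026. The call of Novel00086 remained in 9 of 9 fits with 1 library left out and was lost with limma on log2(FPKM + 1) (adjusted p = 0.090) and log2(FPKM + 0.1) (0.091). That of Novel00042 was lost when yl_12 replicate 1 (adjusted p = 0.070) or 2 (0.063) was dropped. The call of Novel00215 was lost when yl_10 replicate 3 (0.062), yl_12 replicate 1 (0.098) or yl_12 replicate 2 (0.090) was dropped. Novel00124 lost its call in 4 of 9 fits (adjusted p up to 0.065) and Novel00339 in 7 (up to 0.122). Over all 21 alternatives, Novel00042, Novel00215, Novel00124 and Novel00339 lost their calls in 5, 7, 8 and 12. Each of them lost its call with library totals only, and all but Novel00339 also lost it in both limma settings. Novel00215, at 8.08 ± 1.58 CPM in yl_10 and 11.4 ± 1.4 CPM in yl_12, lay nearest to the abundance minimum.

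Among the named falls in yl_12 against yl_10, that of Novel00209 was the largest, and it was also called lower in yl_12 against yl_11. This feature of 3664 bases had 104.5, 113.2 and 90.4 CPM in yl_10, 94.7, 101.7 and 109.1 in yl_11, and 74.2, 73.8 and 66.0 in yl_12. All yl_12 libraries were lower than all others, and yl_10 and yl_11 overlapped. The log2 fold changes were -0.47 (SE 0.08, adjusted p = 0.0012) for yl_12 against yl_10, -0.48 (SE 0.07, adjusted p = 0.0018) for yl_12 against yl_11 and 0.01 (SE 0.07, adjusted p = 0.971) for yl_11 against yl_10. Both falls kept their calls in each of 21 alternatives. Novel00088 fell from 17.5 ± 1.7 CPM in yl_10 to 12.3 ± 0.9 CPM in yl_12, or -0.47 on the log2 scale (SE 0.10, adjusted p = 0.0087), which was not called without yl_10 replicate 1 (0.052).

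For Novel00265 and Novel00269, yl_12 replicate 3 was nearer to the other strains than the other yl_12 libraries were. Novel00265 had 19.3 and 18.4 CPM in yl_12 replicates 1 and 2, 26.5 CPM in replicate 3, and between 27.8 and 33.2 CPM in the other strains. Novel00269 had 178.1, 176.9 and 222.8 CPM in yl_12 and between 232.4 and 249.0 CPM elsewhere. The log2 fold changes from yl_10 to yl_12 were -0.44 (SE 0.13, adjusted p = 0.049) and -0.27 (SE 0.08, adjusted p = 0.044). Leaving out yl_12 replicate 3 gave adjusted p-values of 0.00082 and 5.97e-05, and leaving out any other library ended both calls (adjusted p up to 0.155 and 0.143). Novel00364 (-0.23, SE 0.07, adjusted p = 0.037) and Novel00362 (-0.19, SE 0.05, adjusted p = 0.033) lost their calls in 8 and 7 of these 9 fits, with adjusted p up to 0.170 and 0.117. Among all 21 alternatives, Novel00265, Novel00269, Novel00364 and Novel00362 lost their calls in 12, 9, 9 and 10.

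Of the 214 features, 25 (11.7%) were called in yl_12 against yl_10. The background was 14.8% of all features tested and 17.1% of annotated features of at least 10 CPM. There were 18 higher (background 7.00%) and 7 lower (background 7.81%). With library totals only, 23 were called, of which 9 were higher (background 4.29%) and 14 lower (background 12.9%). The median log2 fold change over the 214 features was 0.02 with the main scaling and -0.03 with library totals, and over all features tested it was 0.00 and -0.06. Leaving out yl_10 replicate 1 or yl_12 replicate 1 lowered the 25 calls to 14, with a background of 9.99% and 10.03%. Dropping yl_12 replicate 2 lowered them to 16 (background 9.95%). There were 71 calls (33.2%) with the 3 deviating libraries removed, against a background of 31.2%. Annotated features of at least 10 CPM were then at 35.6%.

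**Figure D4:**
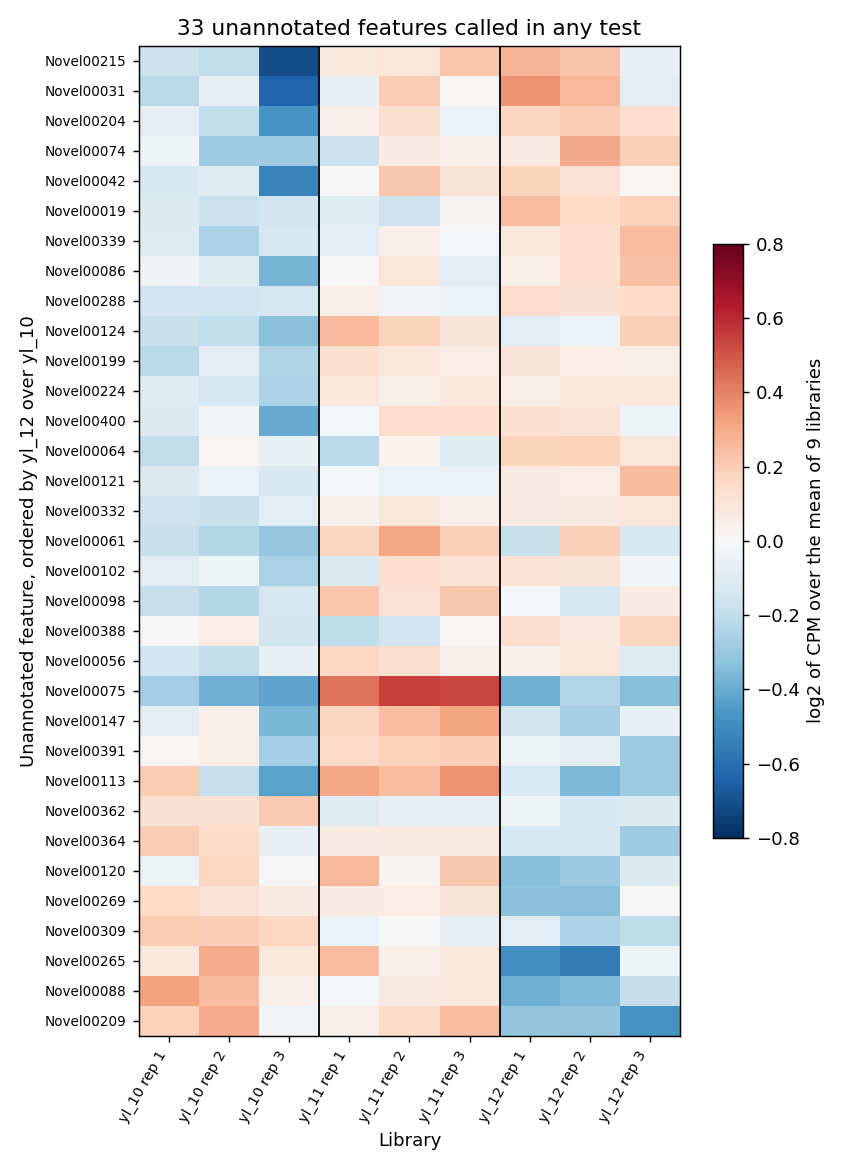
log2 of the CPM over the feature's mean of 9 libraries (colour) for the 33 unannotated features called in the F test or in a comparison of 2 strains, with libraries in columns and features in rows. Rows are ordered by the ratio of yl_12 to yl_10, and Novel00075 shows the strongest colour in the yl_11 columns.

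Between yl_12 and yl_11, the clearest calls were the falls of Novel00075 and Novel00209 given above. Novel00113, 4582 bases long, was at 26.0, 19.9 and 16.8 CPM in yl_10, 28.0, 26.9 and 29.0 in yl_11, and 20.8, 17.6 and 18.5 in yl_12. The libraries of yl_11 and yl_12 were separate, as the rule for naming features required. Those of yl_10 spread over the yl_12 range and up to 26.0 CPM. The log2 fold change of Novel00113 was -0.53 (SE 0.12, adjusted p = 0.024). The falls of Novel00120 (-0.39, SE 0.09, adjusted p = 0.025) and Novel00147 (-0.37, SE 0.10, adjusted p = 0.049) were accompanied by rises of Novel00064 (0.28, SE 0.07, adjusted p = 0.041) and Novel00388 (0.27, SE 0.07, adjusted p = 0.029). Over the 9 fits with 1 library left out, Novel00113, Novel00120, Novel00064 and Novel00388 lost their calls in 4 each, with adjusted p up to 0.110, 0.116, 0.179 and 0.128. Novel00147 lost its call in 7 (up to 0.197). Over all 21 alternatives, Novel00113, Novel00120, Novel00064, Novel00388 and Novel00147 lost their calls in 6, 6, 7, 8 and 13, which included both limma settings for each.

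There were 9 calls among the 214 features (4.21%) in yl_12 against yl_11, where the background was 7.04% of all features tested and 8.25% of annotated features of at least 10 CPM. Of these, 4 were higher (background 3.20%) and 5 lower (background 3.84%). With library totals only, 1 was higher (background 1.87%) and 8 were lower (background 4.82%). The median log2 fold change over the 214 features was 0.00. Leaving out replicate 1, 2 or 3 of yl_11 gave 3, 4 and 3 calls (background 3.27%, 3.69% and 3.72%). Leaving out replicate 1, 2 or 3 of yl_12 gave 3, 2 and 29 (background 3.13%, 3.08% and 11.7%). There were 16 without yl_10 replicate 3 (background 9.82%), and 62 (29.0%) with the 3 deviating libraries removed, against a background of 24.6%. Annotated features of at least 10 CPM were then at 28.0%.

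**Figure D5:**
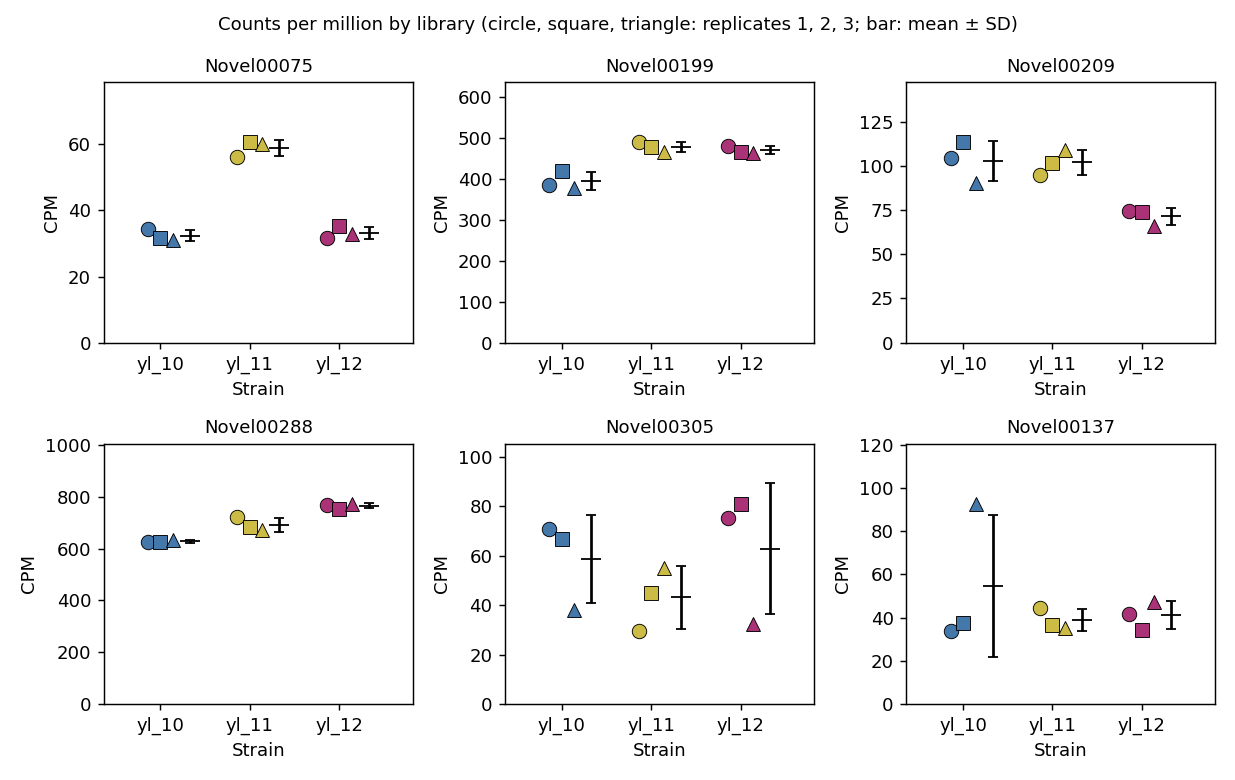
CPM (y axis, from 0) by strain (x axis) for 6 unannotated features, with 1 symbol per library (circle, square and triangle for replicates 1, 2 and 3) and the mean ± SD of 3 libraries. Novel00075 is high in yl_11 and Novel00209 is low in yl_12, while Novel00305 and Novel00137 have single libraries far from the others of their strain.

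The 2 other features with a ratio of at least 1.5 between strain means were not called in any comparison. Novel00353 had 23.1, 30.3 and 14.5 CPM in yl_10, 32.7, 36.5 and 37.7 in yl_11, and 26.0, 30.7 and 24.6 in yl_12. All yl_11 libraries were above the rest, and the yl_10 libraries spanned 14.5 to 30.3 CPM. Its log2 fold change for yl_11 against yl_10 was 0.66 (SE 0.19, adjusted p = 0.095). Novel00083 had 28.4, 27.2 and 20.9 CPM in yl_10, 15.0, 23.4 and 21.5 in yl_11, and 19.5, 16.5 and 13.6 in yl_12, with a difference of -0.58 on the log2 scale (SE 0.18, adjusted p = 0.056) for yl_12 against yl_10.

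Most of the 214 unannotated features varied little within a strain. The median over the 214 features of the coefficient of variation (SD divided by the mean of 3 libraries, as the median of the 3 strains) was 6.38%, and it was 4.99% for annotated features of at least 10 CPM. For unannotated features under 10 CPM that had counts it was 19.5%. Split by abundance, from 10 to 30 CPM the medians were 9.02% for 84 unannotated and 8.21% for 1200 annotated features. From 30 to 100 CPM they were 6.09% for 63 and 5.10% for 1737, and from 100 CPM upwards 3.21% for 67 and 3.47% for 1901.

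The steadiest features were Novel00196, Novel00067 and Novel00227, with coefficients of 0.574%, 1.0% and 1.1%. Novel00196, 3008 bases long, had 1390.4, 1384 and 1377 CPM in yl_10, 1322, 1348 and 1337 in yl_11, and 1426, 1430.4 and 1415 in yl_12. The strains did not overlap, which choosing a feature for its small spread within strains makes more likely. None of the 3 pairwise comparisons called it, with log2 fold changes of -0.03 for yl_11 against yl_10 (adjusted p = 0.756), 0.09 for yl_12 against yl_10 (0.141) and 0.12 for yl_12 against yl_11 (0.096).

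The least steady were Novel00305, Novel00341 and Novel00034, with coefficients of 30.4%, 21.3% and 20.6%. Novel00305, 1162 bases long, had 70.8 and 66.7 CPM in yl_10 replicates 1 and 2 but 38.1 CPM in replicate 3. In yl_11 it had 29.6 CPM in replicate 1, 44.8 CPM in replicate 2 and 55.2 CPM in replicate 3, and in yl_12 it had 75.3, 81.1 and 32.3 CPM. In each strain the lowest value was that of the deviating library. The F test did not call it (adjusted p = 0.577).

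Novel00137, chosen after its values were seen, went the other way, with 33.8, 37.5 and 92.7 CPM in yl_10, 44.5, 36.7 and 35.1 in yl_11, and 41.5, 34.4 and 47.3 in yl_12. Its highest value in each strain was in the deviating library. The deviating library was lower than the mean of the other 2 in all 3 strains for 58 of the 214 (27.1%) and for 1318 of the 4838 annotated features (27.2%). It was higher in all 3 for 27 (12.6%) and 618 (12.8%). The median absolute log2 ratio of the deviating library to the mean of the other 2 was 0.14 for unannotated and 0.11 for annotated features in yl_10, 0.07 and 0.07 in yl_11, and 0.14 and 0.10 in yl_12. These differences were not tested. These libraries were picked from values that include those of the 214 features, so the counts are a description.

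Near the abundance minimum, the features just inside it were Novel00215 with a mean of 10.2 CPM, Novel00078 with 10.3 CPM and Novel00216 with 10.4 CPM. Those just outside were Novel00331 with 9.98 CPM, Novel00302 with 9.73 CPM and Novel00372 with 9.45 CPM. These 3 were 1896, 2036 and 2207 bases long.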

How the data were processed

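Per the labels' protocols, RNA of 9 yeast libraries was read from both ends, 150 bp each. The authors deposited raw read counts and FPKM values per feature. The submitters' processing notes name HTSeq 0.6.1 and DESeq 1.18.0 without saying what each did. For the aligner, the genome build and how unannotated features were found, the entry is not given in the sources used here. Length was computed from the count divided by the FPKM and the library total, and agreed between libraries within a relative difference of 1.13e-14.

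Counts were tested with edgeR 4.0.16 in R 4.3.3 (TMM factors, default filter by strain, robust quasi-likelihood dispersions) in 1 fit of all 9 libraries with strain as the only term. P-values were adjusted over all 6147 features tested, and a feature was called below 0.05. CPM values use library totals. The SE is the log2 fold change divided by the root of F. Alternatives used DESeq2 1.42.0, limma 3.58.1 on log2(FPKM + 1), other scalings, filters and libraries.

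Within-strain pairs of libraries differed by more than counting noise (chi-square over its degrees of freedom between 1.73 and 15.5). The pair without the deviating library was at 1.86 in yl_10, 2.32 in yl_11 and 1.73 in yl_12. Pairs with a deviating library were at 7.14 or more. All 9 libraries were kept as separate, although these values cannot tell separate cultures from separate libraries of 1 culture. Features and rules were chosen with earlier results of these data known. Per comparison, up to 10 rises and 10 falls with an adjusted p below 0.05 and no overlap between libraries were named, with the 10 most abundant features and 3 at each extreme of length, variation, ratio and the abundance minimum. Other features were named after their values were seen.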

Additional observations from a re-analysis of the deposited data

How the results depend on the processing

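Of 34 pairs of a named feature and a comparison, 12 kept their call in each of 21 alternatives, and none changed direction. The count of features that differ among the strains was 103 with the 3 deviating libraries removed and 65 with those libraries kept under a term of their own (38.3% and 27.7% of all features tested). With these 2 settings the calls were 57 and 43 in yl_11 against yl_10 (all features 20.1% and 13.1%), 71 and 50 in yl_12 against yl_10 (31.2% and 23.8%), and 62 and 32 in yl_12 against yl_11 (24.6% and 15.8%). For annotated features of at least 10 CPM, the F test shares were 43.6% and 31.4%. Those of the comparisons were 23.2% and 15.0%, 35.6% and 27.1%, and 28.0% and 17.9%, in the same order. DESeq2 called 14 in yl_11 against yl_10 (6.54% of the 214). The share was 5.78% over all 6366 features, of which 1027 had no adjusted p and could not be called. It was 7.21% for annotated features of at least 10 CPM. limma called 2 in yl_12 against yl_11 with a pseudocount of 1 and 2 with 0.1 (all features 5.97% and 5.99%). When each library was left out in turn, the F test called 12 to 51 features and the comparisons called 3 to 21, 14 to 29 and 2 to 29, in the order above. The cause was not tested.

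With the replicate number as a block, 5 features were called in yl_11 against yl_10 (all features 2.46%), 22 in yl_12 against yl_10 (12.3%) and 6 in yl_12 against yl_11 (5.34%). Deviations of libraries with the same number correlated at -0.35 to 0.27 over 9 pairs, and at -0.34 to 0.49 over 18 pairs with different numbers. The ends of these ranges come from pairs with a deviating library. They cannot tell whether libraries with the same number share a day or culture, and the labels do not say.

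A minimum of 5 CPM gave 257 features and one of 20 CPM gave 165. Their share of yl_10 counts was 5.23% and 5.13%, and their median length 2113 and 2505 bases. All unannotated features with a length had a median of 1745 bases. Depth limits the scarcest features, whose lowest count in a library was 44.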
